A study of Mus musculus with 4 samples.

Results

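The Iroquois homeobox family was examined in purified cells of the mouse hindlimb bud at embryonic day 11.5. Its members were taken by gene symbol, and all 6 (Irx1, Irx2, Irx3, Irx4, Irx5 and Irx6) were found among the 25239 genes of the deposited count table. The embryos were of the FVB strain and wild-type apart from a reporter transgene that both populations carried, H11 hsp68-hZRS(404G>A)-mCherry. In it a human ZRS, the limb enhancer of Shh, with the 404G>A change is joined to the minimal hsp68 promoter and to mCherry, a red fluorescent protein, at the H11 locus. Anterior mCherry+ cells (2 libraries) were compared with central mCherry- cells (2 libraries), all dissected from hindlimbs, dissociated and sorted. Library totals ran from 30080925 to 33257383 counts. The populations thus differ both in position and in reporter activity, and these cannot be told apart. No label says whether the replicates came from separate litters or pools, so p-values measure the spread between these libraries.

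Iroquois proteins are transcription factors of the TALE class, whose homeodomain has a loop extended between its first helices. In mammals the genes lie in paired clusters, one with Irx1, Irx2 and Irx4 and the other with Irx3, Irx5 and Irx6. In the limb bud, Irx3 and Irx5 act early and redundantly: mice lacking both lose proximal and anterior parts of the hindlimb skeleton, and hedgehog signalling restrains their activity. Irx1 and Irx2 are known from the developing digits, and Irx4 from the ventricle of the heart.

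The Irx3, Irx5 and Irx6 cluster lies on chromosome 8 of the mouse genome (GENCODE M21, mm10). Irx3 occupies chr8:91798525-91802067 on the minus strand, Irx5 chr8:92357625-92376286 on the plus strand and Irx6 chr8:92674288-92680956 on the plus strand. The other cluster lies on chromosome 13, with Irx1 at chr13:71957921-71963723 (minus strand), Irx2 at chr13:72628820-72634198 (plus strand) and Irx4 at chr13:73260479-73269608 (plus strand). All are protein-coding genes.

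The homeobox of Irx3 and Irx5, the members whose expression differed most, is printed because it shows how far reads from these related genes can be told apart. Each is a coding stretch of 189 bases within a single exon, read 5′ to 3′ on the coding strand from the GENCODE M21 transcripts. Capitals mark the bases at which the pair differs.
Irx3 (chr8:91800499-91800687, minus strand): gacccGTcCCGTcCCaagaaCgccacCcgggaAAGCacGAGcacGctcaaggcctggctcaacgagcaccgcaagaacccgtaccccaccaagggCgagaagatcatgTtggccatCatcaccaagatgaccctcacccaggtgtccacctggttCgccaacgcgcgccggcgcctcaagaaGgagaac
Irx5 (chr8:92359624-92359812, plus strand): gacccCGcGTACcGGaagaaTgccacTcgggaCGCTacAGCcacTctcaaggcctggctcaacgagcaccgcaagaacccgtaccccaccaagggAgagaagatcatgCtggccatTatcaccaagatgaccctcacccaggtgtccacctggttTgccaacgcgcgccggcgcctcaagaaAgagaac

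Irx3 and Irx5 shared 166 of the 189 homeobox bases (87.8%). Identity was highest between Irx2 and Irx5, which lie in different clusters, at 91.0%, and lowest at 83.1% for Irx2 against Irx4 and against Irx6. The longest run of identical bases between the transcripts of 2 members was 88, shared by Irx3 and Irx6. Irx2 and Irx5 shared a run of 65 bases and Irx3 and Irx5 one of 50. How reads falling wholly inside such a run were assigned is not given in the sources used here, so the few counts of Irx6 are uncertain beside the abundant Irx3. The Irx3 gene also overlaps the antisense gene Irx3os over 1653 bases on the other strand. Whether counting used strand is not given, so Irx3 and antisense reads may not be fully separated.

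Expression of the family was concentrated in Irx3 and Irx5 and in the central cells. Irx3 was counted 54 and 16 times in anterior cells against 2039 and 1587 times in central cells. In CPM, the counts scaled to library size with TMM factors, these were 1.62 and 0.55 against 66.2 and 49.0. Both central libraries stood far above both anterior ones. The mean was 1.08 ± 0.76 CPM in anterior cells and 57.6 ± 12.2 CPM in central cells (SD, n = 2 each), which put anterior cells at 1.88% of the central level. By edgeR's quasi-likelihood test the log2 fold change was -5.69 (SE 0.31), a 51.7-fold fall with a Benjamini-Hochberg adjusted p-value of 7.54e-06.

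Irx5, the partner of Irx3 in the early limb bud, followed the same direction. It was counted 28 and 2 times in anterior cells against 1099 and 702 times in central cells, or 0.84 and 0.068 CPM against 35.7 and 21.7 CPM. The populations did not overlap, and anterior replicate 2 lay below the level that 3 counts give. Means were 0.45 ± 0.55 and 28.7 ± 9.90 CPM (SD, n = 2 each), so anterior cells held 1.58% of the central level. The fold change was -5.91 (SE 0.52) on the log2 scale, a 60.0-fold fall with an edgeR adjusted p-value of 0.000101. On halved counts, because read mates appear to have been counted separately, the 95% exact interval for the ratio of summed counts, central over anterior, was 35.9 to 107 for Irx5 and 36.8 to 74.1 for Irx3. These intervals cover counting error only.

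The size of both falls depended on the anterior library used, although the call did not. Leaving out anterior replicate 1 gave log2 fold changes of -6.71 for Irx3 and -8.63 for Irx5, the latter resting on 2 anterior counts. Leaving out anterior replicate 2 gave -5.15 and -5.09. In bulk RNA, fewer cells of a type and less RNA per cell cannot be told apart, so a low anterior value may stand for few expressing cells or for low expression in many.

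Of the 6 members, 4 passed the filter on low counts and 2 of these were called, both lower in anterior cells. Over all 14610 genes tested, 22.9% were called and 12.3% were called lower. A called fall of at least 4 on the log2 scale, which Irx3 and Irx5 both showed, was reached by 1.33% of the genes tested. Among the 1792 genes called lower, Irx5 ranked 82 and Irx3 ranked 90 by log2 fold change. Members were chosen with earlier results of these data in view, so these shares describe the members and are no test of the family.

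Irx6, the third gene of that cluster, is known mainly from neurons of the retina. It was counted 4 and 2 times in anterior cells against 11 and 8 times in central cells. It failed the filter on low counts and was not tested in the main comparison. The ratio of summed counts, central over anterior, was 3.14, with a 95% exact interval of 0.85 to 18.7 on halved counts, so a difference was not detectable at this depth. Retaining all genes with at least 1 count gave a log2 fold change of -1.62 (SE 1.32; edgeR adjusted p-value 0.475).

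**Figure D1:**
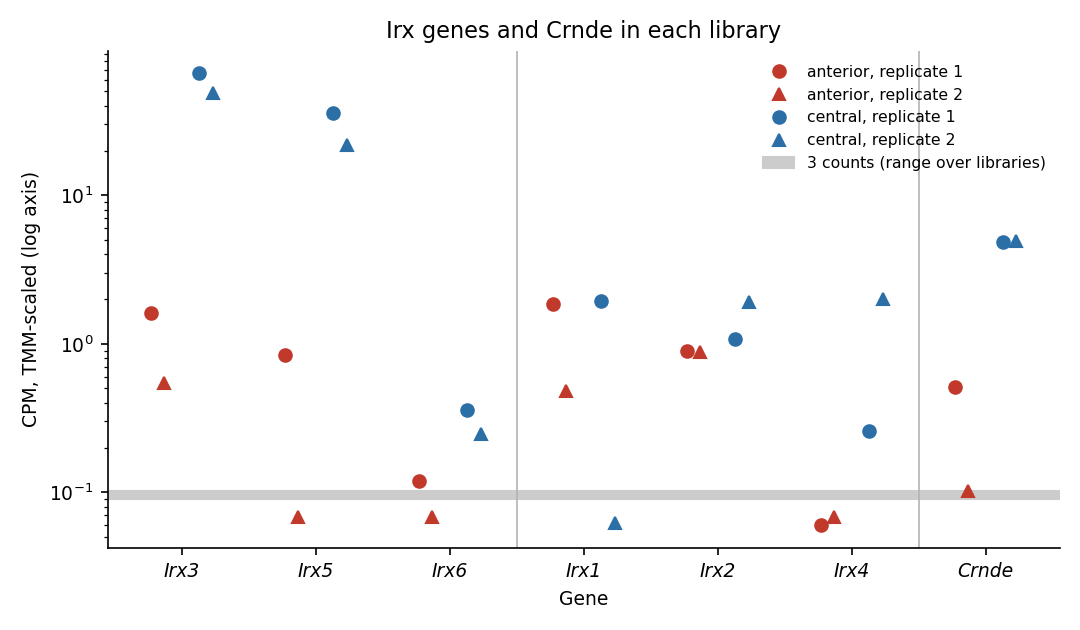
CPM of each Irx gene and of the non-coding gene Crnde in each library, on a log axis, with 1 point per library (circles replicate 1, triangles replicate 2) and a grey band at the level that 3 counts give. Of the genes plotted, only Irx1 has anterior (red) and central (blue) points that overlap. No overlap was seen in 63.5% of all genes tested. The gap is wide for Irx3, Irx5 and Crnde, and the points of Irx4 are spread widely between the central libraries.

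The genes of the other cluster were expressed at about 2 CPM or less in every library. Irx2 was counted 30 and 26 times in anterior cells against 33 and 62 times in central cells, at 0.90 and 0.89 CPM against 1.07 and 1.92 CPM. Its anterior values nearly coincided and its central values lay above them, with central replicate 1 close by. The log2 fold change was -0.74 (SE 0.48; edgeR adjusted p-value 0.314), and 63.5% of all genes tested likewise showed no overlap between groups. A difference of this size was not separable from the spread between replicates.

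Irx1 differed between replicates more than between populations. It was counted 62 and 14 times in anterior cells against 60 and 2 times in central cells, or 1.86 and 0.48 CPM against 1.95 and 0.062 CPM. Replicate 1 was thus the higher library in both populations, by 3.9-fold in anterior and 31.5-fold in central cells. The log2 fold change between populations was 0.23 (SE 1.07; edgeR adjusted p-value 0.90). It became -1.06 without anterior replicate 1 and -0.72 without central replicate 2, and 4.17 without central replicate 1, where the edgeR adjusted p-value was 0.027. A spread of at least 3-fold from replicate 1 to replicate 2 in both populations, a pattern chosen after the Irx1 values were seen, occurred in 31 of the 14610 genes tested (0.212%).

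Irx4 was counted 2 times in each anterior library, against 8 and 65 times in central cells, or 0.060 and 0.068 CPM against 0.26 and 2.01 CPM. Most of its signal in the series therefore came from central replicate 2, which was 7.73-fold above central replicate 1. Irx4 failed the filter on low counts. The ratio of summed counts, central over anterior, was 18.1, with a 95% exact interval of 4.74 to 157 on halved counts that ignores the spread between replicates. With all genes of at least 1 count retained, its log2 fold change was -4.07 (SE 0.98; edgeR adjusted p-value 0.00355), a fitted value that rests on 4 anterior counts in all.

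Per length, using the summed exon length of each gene to give length-scaled CPM (RPKM), the order of the means in central cells was Irx3, Irx5, Irx2, Irx4, Irx1 and Irx6. The central levels were 20.9 ± 4.40 RPKM for Irx3 and 9.17 ± 3.17 RPKM for Irx5 (SD, n = 2), and the library ranges of this pair did not overlap. Below them Irx2, Irx4 and Irx1, at 0.46 ± 0.18, 0.44 ± 0.47 and 0.38 ± 0.51 RPKM, had overlapping ranges and could not be ordered. Irx6 was at 0.090 ± 0.023 RPKM, and its range overlapped those of Irx4 and Irx1. In anterior cells no member exceeded 0.71 RPKM in any library. Means there ran from 0.45 ± 0.37 RPKM for Irx1, 0.39 ± 0.28 for Irx3 and 0.27 ± 0.003 for Irx2 down to 0.15 ± 0.17 for Irx5. The lowest means were those of Irx6 and Irx4, at 0.028 ± 0.011 and 0.025 ± 0.002 RPKM, but Irx5 lay below Irx4 in anterior replicate 2 (0.0218 against 0.0262 RPKM).

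The share of Irx3 and Irx5 within the family was higher in each central library than in either anterior one. Irx3 and Irx5 together supplied 96.5% and 94.4% of the summed RPKM of the family in the central libraries, against 45.1% and 30.5% in the anterior ones. The summed level of all 6 members was 36.7 and 26.1 RPKM in central cells and 1.9 and 0.718 RPKM in anterior cells. The Irx1, Irx2 and Irx4 cluster, in contrast, summed to 1.17 and 1.38 RPKM in central cells and to 1.01 and 0.478 RPKM in anterior cells. The ratio of Irx3 to Irx5 in RPKM was 2.10 and 2.56 in the central libraries and 2.18 in anterior replicate 1. In anterior replicate 2 it was 9.06, on 2 counts of Irx5.

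Genes around Irx3 and Irx5 were examined next, because enhancers of these genes are known to lie inside the neighbouring Fto. Crnde, a long non-coding gene, starts 1505 bases from the start of Irx5 and is transcribed away from it. It was counted 17 and 3 times in anterior cells against 150 and 159 times in central cells, or 0.51 and 0.10 CPM against 4.87 and 4.91 CPM. The central libraries nearly coincided and both exceeded both anterior ones. The log2 fold change was -3.94 (SE 0.55; edgeR adjusted p-value 0.00128), and it was -5.52 without anterior replicate 1 and -3.25 without anterior replicate 2. Crnde thus fell in the same comparison as Irx3, whose start lies 556 kb from that of Irx5.

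Fto, encoding an RNA demethylase, starts 489 kb from Irx3 and measured 99.8 and 101 CPM in anterior against 119 and 115 CPM in central cells. Its log2 fold change was -0.22 (SE 0.07; edgeR adjusted p-value 0.0458), and the call was lost without anterior replicate 1 (edgeR adjusted p-value 0.238), without anterior replicate 2 (0.224) and without central replicate 1 (0.0886). Fto was called in only 7 of its 14 alternatives, with adjusted p-values from 0.025 to 1, and the DESeq2 Wald test (0.058) and the edgeR fit with no filter beyond 1 count (0.051) also lost it. Rpgrip1l, a gene of the ciliary transition zone, and Aktip were not called, at log2 fold changes of -0.22 (SE 0.11, edgeR adjusted p-value 0.174) and -0.02 (SE 0.11, edgeR adjusted p-value 0.932). These genes are lost together with the Irx genes in the Fused toes mouse mutation. On the far side, the matrix metalloprotease gene Mmp2 starts 153 kb beyond Irx6 and measured 328 ± 6.17 CPM against 322 ± 10.01 CPM (SD, n = 2; edgeR adjusted p-value 0.777). Lpcat2, a phospholipid acyltransferase gene, rose in anterior cells, to 6.76 ± 0.83 against 3.44 ± 0.37 CPM (SD, n = 2 each), a difference on the log2 scale of 0.97 (SE 0.24; edgeR adjusted p-value 0.0207). That call was lost without anterior replicate 1 (adjusted p-value 0.122 by edgeR) and without central replicate 1 (0.0565).

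In the list of 13 neighbours of this cluster, 11 were tested, of which 1 was called higher and 2 lower. The median log2 fold change of the list was -0.004, beside -0.009 over all genes tested, and its called share of 27.3% stood beside 22.9% of all genes tested.

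Part of the interval between Crnde and Irx5, the end next to Crnde, is shown because both genes fell in anterior cells. The sequence is the 250 bases directly before the start of Crnde in RefSeq (GRCm38.p6, chr8:92356121-92356370, minus strand), 5′ to 3′ towards Crnde. Capitals mark matches to the GC box (GGGCGG) and the CCAAT box (CCAAT) on either strand.
Crnde upstream: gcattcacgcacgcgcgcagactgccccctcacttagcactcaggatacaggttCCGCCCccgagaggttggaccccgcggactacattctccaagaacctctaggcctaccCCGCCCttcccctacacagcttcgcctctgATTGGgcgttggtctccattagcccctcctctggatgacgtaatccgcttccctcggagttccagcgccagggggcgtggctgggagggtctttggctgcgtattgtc

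This window held 2 GC boxes and 1 CCAAT box. Of the 32851 RefSeq promoter windows of the same length, 32.7% held a GC box and 33.8% a CCAAT box. It had 17 CG dinucleotides and a GC content of 62.0%, beside medians of 6 and 52.4% over all windows. The TATA box (TATAAA), the core bound by Meis proteins (TGACAG) and the palindromic Iroquois element (ACANNTGT) were searched on both strands as well. None of these letters occurred in this window or in the corresponding windows of Irx2, Irx3 and Irx4, and 12.4%, 15.9% and 6.31% of all windows held them. Windows are set by RefSeq starts: that of Irx3 lies inside the GENCODE gene given above, and that of Irx4 runs past its GENCODE start. The Irx3 window had 13 CG dinucleotides, the Irx2 window 19 and the Irx4 window 22. GC boxes numbered 2 in the Irx2 window and 2 in that of Irx4, with none in that of Irx3. No motif overlapped another in the printed sequence, and a match to these letters is a description only.

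In the Irx1, Irx2 and Irx4 cluster, the non-coding gene Gm20554 starts 256 bases from the start of Irx2 and is transcribed away from it. It had 2 and 0 counts in anterior cells and 10 and 30 in central cells. The fitted log2 fold change was -4.15 (SE 1.13; edgeR adjusted p-value 0.0302). The Gm20554 call was lost without anterior replicate 2 (edgeR adjusted p-value 0.10, log2 fold change -3.31) and without central replicate 2 (0.194, -3.20). Irx2 itself, which shares this region, was not called.

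Of the 12 listed neighbours of that cluster, 11 were tested, of which 1 was called higher and 2 lower. This share of 27.3% stood beside 22.9% of all genes tested, and the median log2 fold change was -0.07. The list leaves out Gm20554, whereas Crnde is in the list of the other cluster, so the shares of the lists are not strictly comparable. Adamts16, a metalloprotease gene 1120 kb from the start of Irx1, had no count in either anterior library and 52 and 160 in the central ones. Its mean central level, 3.32 CPM, was 34.5-fold above the level that 3 counts give in the anterior libraries (edgeR adjusted p-value 0.00131). That ratio is no lower bound, because the central libraries differed, at 1.69 and 4.94 CPM. Ube2ql1 and Nsun2 lie farther off, with starts at -2889 and -3095 kb relative to that of Irx2. Ube2ql1 was lower, with a log2 fold change of -1.22 (SE 0.25; edgeR adjusted p-value 0.00929). Nsun2, encoding an RNA methyltransferase, was higher by 0.26 (SE 0.06; edgeR adjusted p-value 0.0152), which rose to 0.123 and 0.114 without anterior replicate 1 and without anterior replicate 2. Ndufs6, a subunit gene of respiratory complex I that starts 68.1 kb from Irx4, was not called (edgeR adjusted p-value 0.212).

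**Figure D2:**
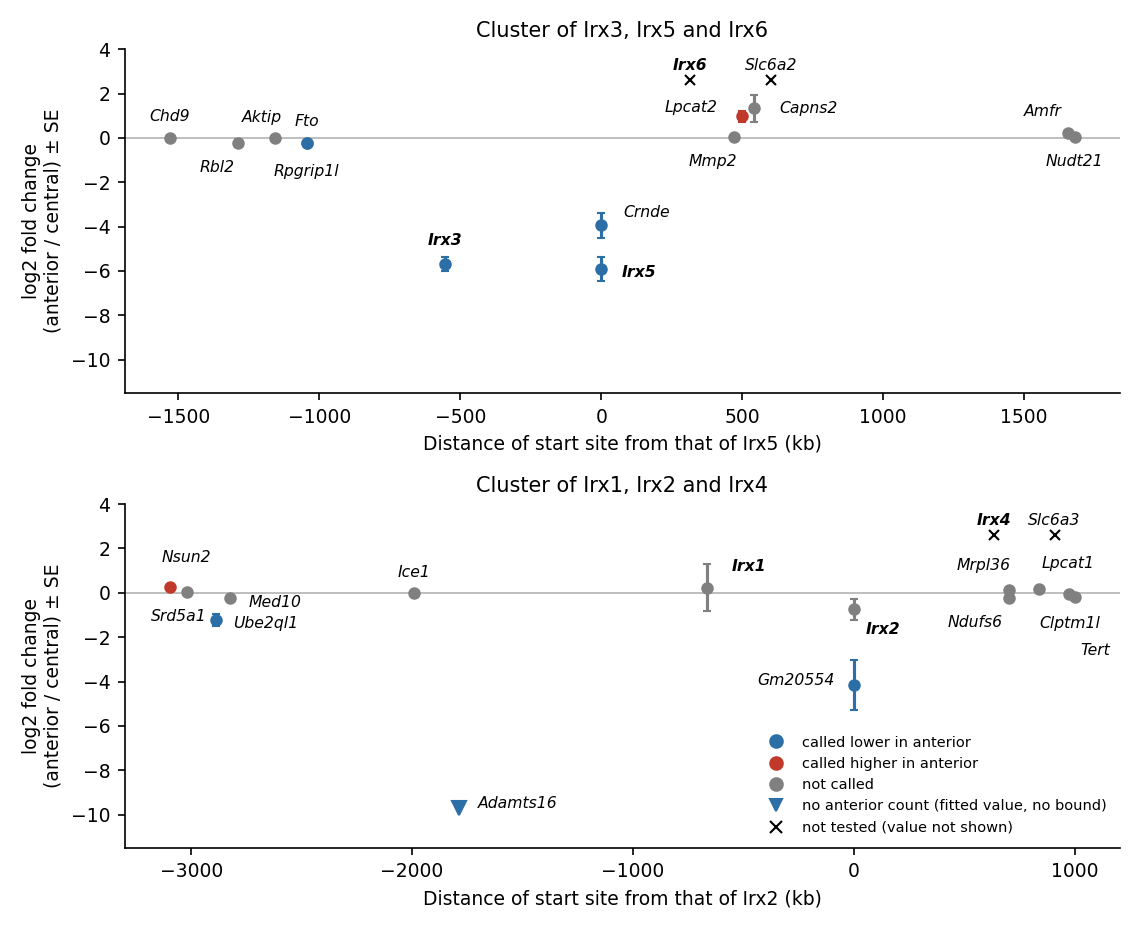
log2 fold change (anterior over central) with its SE for the genes of the paired Irx clusters, plotted by the distance in kb of each start site from that of Irx5 (top) or Irx2 (bottom). Irx3, Crnde and Irx5 lie between -5.91 and -3.94, while Fto, Rpgrip1l and Mmp2 on either side lie between -0.22 and 0.03. Beyond Mmp2, Lpcat2 lies at 0.97 and was called higher, and Capns2 lies at 1.33 and was not called. The triangle marks Adamts16, which had no anterior count, so its fitted value is no bound.

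Other TALE homeobox genes were compared with the Iroquois genes. All 12 listed genes were tested: 5 were called lower in anterior cells, none was called higher and 7 were not called (41.7% called, beside 22.9% of all genes tested), with a median log2 fold change of -0.64 beside -0.009 over all genes tested. At an unadjusted p under 0.05, edgeR also placed 0 of the 12 higher in anterior cells, and DESeq2 and limma-voom called 0 higher. Over all genes tested, edgeR called 10.7% higher, and 2 of the 12 had a positive log2 fold change. Meis1 and Meis2, known as markers of the proximal limb, had the largest falls of the list. Meis1 measured 5.996 and 1.77 CPM in the anterior and 95.04 and 79.9 CPM in the central libraries. Its log2 fold change was -4.46 (SE 0.35; edgeR adjusted p-value 4.86e-05). Meis2 measured 11.03 and 2.04 CPM against 128 and 131 CPM, with a log2 fold change of -4.27 (SE 0.46; edgeR adjusted p-value 0.000329). Meis3 was counted 64 and 0 times in anterior cells and 149 and 138 times in central cells, and did not pass the test (edgeR adjusted p-value 0.135). It was called lower by limma-voom (adjusted p-value 0.0415). By edgeR it was called with no filter beyond 1 count (adjusted p-value 0.015) and with a replicate block (0.0234). The other settings that kept all libraries did not call Meis3. Without anterior replicate 1 the values of Meis1 and Meis2 were -5.62 and -5.98, and without anterior replicate 2 they were -3.87 and -3.55. Pbx3 and Pknox2, which were called lower too, had log2 fold changes of -0.62 and -1.25. Mkx, the tendon regulator Mohawk, which is related to the Iroquois genes, measured 14.6 ± 1.94 and 15.5 ± 3.72 CPM (SD, n = 2) and did not pass the test (edgeR adjusted p-value 0.808).

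Limb genes that have been studied together with Irx3 and Irx5 were listed next, namely hedgehog components, early hindlimb factors and anterior factors. Of 14 tested, 3 were called higher and 7 lower in anterior cells (71.4% called, beside 22.9% of all genes tested), with a median log2 fold change of -0.48. Isl1, an early hindlimb regulator, measured 4.56 and 0.68 CPM in anterior and 22.05 and 23.6 CPM in central cells. The log2 fold change of Isl1 was -3.09 (SE 0.55; edgeR adjusted p-value 0.00443), and it was -5.06 without anterior replicate 1 and -2.32 without anterior replicate 2. The other early hindlimb factors Pitx1 and Tbx4 were not called, at log2 fold changes of -0.05 and -0.14. Hhip, a hedgehog-binding inhibitor that is itself a hedgehog target, had a log2 fold change of -2.63 (SE 0.25; edgeR adjusted p-value 0.000154). Falls were smaller for the hedgehog components Ptch1, Gli1 and Gli2, called lower at -0.54, -0.42 and -0.69. Gli3 was called higher, at 0.81. Sall4, a zinc-finger factor of the limb bud, rose in anterior cells, to 72.5 ± 1.31 against 32.6 ± 3.24 CPM (SD, n = 2 each), a difference on the log2 scale of 1.15 (SE 0.09; edgeR adjusted p-value 6.0e-05). Pax9, an anterior limb marker, was also higher, at 27.7 and 21.9 CPM against 3.44 and 1.27 CPM, with a log2 fold change of 3.40 (edgeR adjusted p-value 0.000258). Without central replicate 1 this was 4.29. Alx4, another anterior factor of the list, measured 21.02 and 37.7 CPM against 54.3 and 36.4 CPM and was not called (log2 fold change -0.63, edgeR adjusted p-value 0.119). Shh was not called either, at 27.4 and 11.7 CPM against 13.2 and 12.2 CPM (edgeR adjusted p-value 0.204).

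The list of proximal and distal limb regulators held 17 genes, all tested, with 11 called higher and 3 lower in anterior cells (82.4% called, beside 22.9% of all genes tested) and a median log2 fold change of 0.37. The genes called lower were Meis1, Meis2 and Shox2, a regulator of the proximal limb skeleton. The largest rises were in Msx1 and Msx2, homeobox genes of the distal mesenchyme. Anterior cells held 246 ± 10.5 CPM of Msx1 and central cells 25.7 ± 4.85 CPM (SD, n = 2 each; edgeR adjusted p-value 1.06e-06). Msx2 measured 67.5 and 62.1 CPM in anterior against 10.5 and 8.06 CPM in central cells, with a log2 fold change of 2.80 (SE 0.13; edgeR adjusted p-value 3.72e-06).

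**Figure D3:**
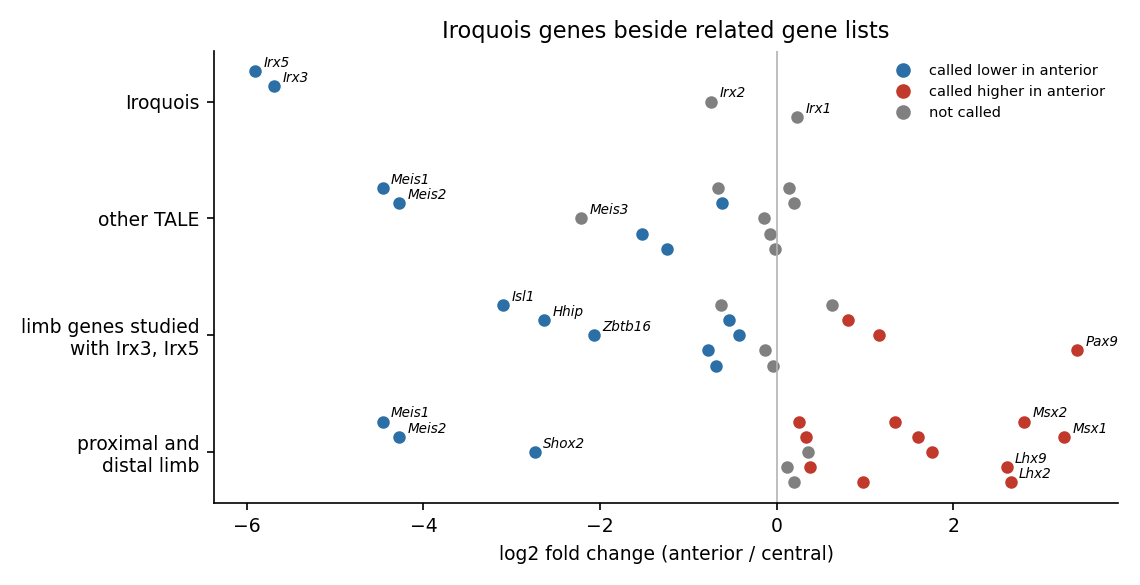
log2 fold change (anterior over central) of every tested gene in the Iroquois family and in 3 related lists, with 1 point per gene coloured by its edgeR call. Irx5 and Irx3, at -5.91 and -5.69, lie to the left of Meis1 and Meis2, whereas Irx1 lies at 0.23 and Irx2 at -0.74.

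Markers of limb mesenchyme and of several other cell types also differed between the populations. Over all genes tested, 12.3% were called lower and 10.7% higher in anterior cells. Of 6 mesenchymal markers, 3 were called higher and 2 lower in anterior cells, with summed levels of 1960 to 2030 CPM against 1610 to 1730 CPM. Prrx1, the mesenchymal marker that was not called, measured 641 to 717 CPM over all libraries. Myogenic markers were called lower in anterior cells in 7 of 7 genes, with a summed level of 2.35 to 4.17 CPM in anterior and 142 to 143 CPM in central cells, and Myog and Pax7 at 0 in both anterior libraries. Surface ectoderm markers were called lower in 11 of 12 genes, at 10.6 to 10.8 CPM summed against 59.8 to 198 CPM. Tendon and connective tissue markers were called lower in 7 of 8 tested genes, at 457 to 519 CPM against 1250 to 1320 CPM. A single listed gene, Tcf4, gave 387.2 and 337.5 CPM of the anterior sums and 479.8 and 499.5 CPM of the central ones. The anterior sum thus mostly reflects Tcf4 and not the list as a whole. For cartilage markers 6 of 9 tested genes were called lower, at 385 to 517 CPM against 1320 to 1680 CPM, with Matn1 at 0 in both anterior libraries. Endothelial markers were called lower in 4 of 7 genes, at 10.5 to 17.0 CPM against 33.1 to 41.8 CPM. Macrophage markers were called higher in 3 of 6 genes, at 14.4 to 17.1 CPM against 5.53 to 6.36 CPM. Schwann precursor and neural markers were called lower in 2 of 5 tested genes, and joint and digit condensation markers in 1 of 4. The called share of the joint list, 25.0%, was near the 22.9% of all genes tested. Primitive red cell markers were higher in 6 of 6 genes, at 3290 to 8380 CPM in anterior against 5.0 to 7.91 CPM in central cells. The part of these cell types in the values of Irx3 and Irx5 was not tested.

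Marker levels also differed between replicates alongside individual Irx genes. Irx4 and the ectoderm markers were both highest in central replicate 2: the summed ectoderm level there was 3.31-fold above central replicate 1. Keratin gene Krt5, a marker of basal epithelium, measured 9.77 and 41.6 CPM in the central libraries, and Wnt6 measured 5.13 and 19.7 CPM. In the anterior libraries Krt5 was at 0.24 and 0.14 CPM. The part of ectoderm in the Irx4 signal was not tested.

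Irx1 shared its fall from central replicate 1 to central replicate 2 with some cartilage matrix genes, chosen here after their values were seen. Matn1 had 58 and 2 counts, Acan 106 and 6, and Matn4, called lower in anterior cells, 1012 and 338. Hapln1, of the same list, went the other way, with 176 and 409 counts. Col2a1, Col9a1 and Col11a1 were only 1.33-fold, 1.29-fold and 1.33-fold higher in central replicate 1. The joint gene Gdf5 had 468 and 136 counts. Of the other genes of the joint list, Nog had 182 and 56, but Wnt9a had 177 and 178 and Ihh 13 and 12. In the anterior libraries, where Irx1 had 62 and 14 counts, Matn4 had 50 and 9 and Gdf5 344 and 245, while Acan had 11 and 16 and Matn1 was at 0 in both. The summed cartilage level was 1.27-fold higher in central replicate 1 than in central replicate 2, and 1.34-fold higher in anterior replicate 1 than in anterior replicate 2. The part of cartilage in the Irx1 values was not tested.

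The residual anterior signal of Irx3 and Irx5 lay mainly in anterior replicate 1. Irx3 was 2.97-fold and Irx5 12.3-fold higher there than in anterior replicate 2. Crnde was 4.98-fold higher, Meis1 3.38-fold, Meis2 5.39-fold and Isl1 6.68-fold. Osr1, a connective tissue regulator named after its values were seen, was 4.18-fold higher. Among other genes called lower in anterior cells, chosen after their values were seen, the ratio between those libraries varied. It was 4.89 for Matn4, 3.08 for Fst and 2.86 for Gria2, but 1.45 for Col12a1, 1.05 for the tendon regulator Scx and 0.95 for the chemokine gene Cxcl12. The summed myogenic level was 1.77-fold and the summed tendon and connective tissue level 1.14-fold higher in anterior replicate 1. In anterior cells most of the myogenic sum was Met (1.86-fold) and most of the other sum was Tcf4 (1.15-fold). These ratios of sums therefore do not describe the lists as a whole. Between the central libraries the gaps of Irx3 and Irx5 were smaller, at 1.35-fold and 1.65-fold higher in replicate 1, while Matn4 was 3.15-fold higher there.

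**Figure D4:**
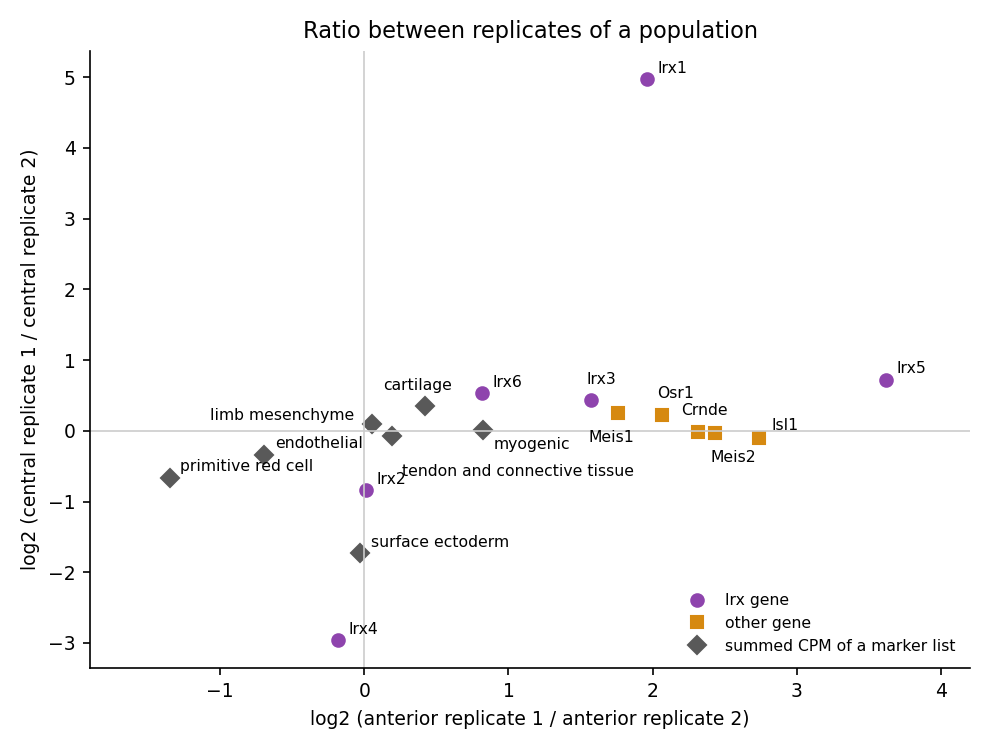
log2 ratio of replicate 1 to replicate 2 in anterior cells (x axis) and in central cells (y axis) for the Irx genes (circles), 5 other genes (squares) and the summed CPM of 7 marker lists (diamonds). Irx5, Irx3, Crnde, Meis1, Meis2, Osr1 and Isl1 lie to the right. Before taking logs, their central ratios run from 0.933 for Isl1 to 1.35 for Irx3 and 1.65 for Irx5. Irx1 stands apart at the top, and Irx4 lies at the bottom beyond the surface ectoderm list.

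Genes whose profile over the 4 libraries was closest to that of a member were found by the Euclidean distance between log2 CPM values, each centred on its mean. The nearest to Irx3 were Gria2, a glutamate receptor gene, Igfbp5, which encodes an insulin-like growth factor binding protein, and Fst, the activin antagonist follistatin, at distances of 0.42, 0.43 and 0.49. Igfbp5 measured 8.63 and 4.09 CPM in anterior and 327 and 334 CPM in central cells, with a log2 fold change of -5.68 (edgeR adjusted p-value 1.90e-06). For Irx5 the nearest were Calb2, Irx3 and the myogenic factor Myf5, at larger distances of 0.88, 1.08 and 1.18. Irx2 was closest to Pcdhga1 (0.17), 1700007J10Rik (0.17) and Gm19897 (0.18). Irx1 was closest to the netrin receptor gene Unc5d (0.45), Ppm1n (0.79) and Gm10865 (1.03). Unc5d had 40 and 10 counts in the anterior and 44 and 2 in the central libraries, which is the order seen for Irx1. With 4 libraries these distances are descriptions only.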

How the data were processed

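RNA from 2 anterior and 2 central hindlimb populations was sequenced, and the authors deposited whole-number counts per gene symbol, not normalized, with totals of 30080925 to 33257383 per library. STAR 2.7.9a, HTSeq and the build mm10 are named in the submitters' processing notes, with no strand setting. Of the counts from 1 to 10, 72.8% to 75.7% were even, as when both mates of a pair are counted. A floor of 3 counts was 0.090 to 0.102 CPM.

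Groups and replicate numbers came from the sample titles. Counts were fitted with edgeR 4.0.16 in R 4.3.3 (filterByExpr, TMM, quasi-likelihood F test, 2 residual degrees of freedom), with Benjamini-Hochberg adjustment over all 14610 genes and a threshold of 0.05. The SE is the absolute log2 fold change divided by the square root of F. Fits that leave out a library kept the same genes, and the lone library was assumed to vary like the other group. Alternatives included DESeq2 1.42.0 and limma-voom (limma 3.58.1). RPKM used summed exon lengths from GENCODE M21, and log2 CPM for distances used a prior count of 2. The fit was tested on simulated data. Replicates were distinct libraries: the chi-square per degree of freedom on halved counts was 16.0 within anterior and 8.98 within central.

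Members, gene lists, alternatives and the naming rule were chosen with earlier results of these data known. The rule named the 6 members, the 3 genes nearest each tested member, the direct annotated neighbours with counts, and per list the called genes with the largest changes at a mean CPM of at least 1. Other genes of the lists named in the text were chosen after their values were seen. Promoter windows were matched by symbol for Irx2, Irx3, Irx4 and Crnde. Protein sequences were not used here.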

Additional observations from a re-analysis of the deposited data

How the results depend on the processing

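Irx3 and Irx5 were called lower in anterior cells in all 14 alternatives run for each, with log2 fold changes of -6.71 to -5.15 (Irx3) and -8.63 to -5.09 (Irx5). Irx2 was not called in any of its 13. Irx1 ranged from -1.06 to 4.17 when 1 library was left out and from 0.19 to 1.40 in the other settings. Irx1 and Irx2 had no value at a mean count of at least 50. The number of genes called was 3351, and 1941 to 3510 when 1 library was left out (1941 without anterior replicate 2). It was 1690 at an adjusted p under 0.01 and 1035 against a 1.5-fold change. Against a 1.5-fold change the called neighbours fell from 3 to 1 in each cluster and the called limb genes studied with Irx3 and Irx5 from 10 to 5. The called neighbours of Irx3, Irx5 and Irx6 numbered 1 to 4 when 1 library was left out, 1 of them without anterior replicate 1 and 1 without central replicate 1, and those of Irx1, Irx2 and Irx4 numbered 2 to 4. The stricter criteria can only lower these counts, and the cause of the other differences was not tested.

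Adding a replicate block gave 3586 calls, 3264 of them also without it, and the values were -5.74 for Irx3, -5.996 for Irx5, -0.69 for Irx2 and 0.77 for Irx1, with the same calls. The block ended the call of Fto (adjusted p-value 0.0558). The labels do not say that a number marks a shared source, and the replicate differences of the populations correlated across genes at 0.064. The share of library-wide calls that were higher ranged from 39.1% to 47.0% over the scalings. Of the 3 genes nearest to a member, 3 were the same with library size alone for Irx1, Irx2 and Irx3, and 2 for Irx5. With 1 to 3 counts in a library, as for Irx4, Irx5 and Irx6 in anterior cells, depth limits the fold.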
